A study of Mus musculus with 12 samples.

Results

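This account follows 37 genes of the response led by the transcription factor ATF4 and of the endoplasmic reticulum (ER) stress response, among 23965 gene rows of a read-count table. They were chosen by name with earlier results of these data known, and each of the 37 names matched 1 gene row. Shares of the 37 set beside shares of all genes are therefore a description and no test of the list. RNA was sequenced from neurospheres, floating cultures of neural progenitors, grown from ventral midbrain of E11.5 mouse embryos of the CD-1 strain. After 3 days of expansion the cultures spent 5 h in N2 medium with GW3965 and CT99021 together, with GW3965 alone, with CT99021 alone, or as Control. Control carries no treatment in its sample label, and the protocol names DMSO as vehicle. GW3965 activates the liver X receptors, nuclear receptors that answer to oxysterols and switch on sterol export. CT99021 inhibits glycogen synthase kinase 3, which otherwise marks beta-catenin for breakdown, so the inhibitor mimics Wnt signalling. Each of the 4 groups had 3 libraries, numbered 1 to 3 in the labels. The labels do not say what a number stands for, so p values measure only how these libraries vary, and that variation may be technical.

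The integrated stress response starts with kinases that sense a shortage of amino acids, unfolded protein in the ER, viral RNA or lack of haem, and that phosphorylate the translation factor eIF2 alpha. Most protein synthesis then slows while the messenger RNA of Atf4 is translated more, and ATF4 with partners of the C/EBP family raises genes for amino acid synthesis and uptake and for the later factor CHOP, the product of Ddit3. Unfolded protein in the ER also acts through IRE1, which splices Xbp1 messenger RNA, and through ATF6. Both of these raise ER chaperones such as BiP, the product of Hspa5.

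Each library held between 9646424 and 21314093 counts on gene rows. All 37 genes passed the expression filter, as did 15608 genes in all. The progenitor marker Sox2 stood at 103 to 239 CPM (counts scaled to library totals adjusted by TMM factors) over the 12 libraries, while Th, which defines dopaminergic neurons, stood at 0.303 to 1.57 CPM. The LXR target Abca1 was at 106 CPM or more in all 6 libraries with GW3965, and at 19.4 to 113 CPM in the other 6. The Wnt target Axin2 was higher with CT99021 than without it within every replicate number. Markers of blood and of mesenchyme varied widely: 4 listed erythroid genes summed to 1863 to 10240 CPM, and 6 mesenchyme and pericyte genes to 220.3 to 3658 CPM.

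Promoter sequence is shown for 7 of the genes, each with a match to a motif through which ATF4 or the ER stress factors are known to act. RefSeq windows on GRCm38.p6, from 250 bases before to 50 after the start of transcription, were at hand for 32 of the 37 genes. The composite C/EBP-ATF motif TGATGNAA, sought on both strands (its reverse complement is TTNCATCA), was present in 10 of these 32 windows, or 31.2%. The 10 genes were Atf3, Nupr1, Asns, Pck2, Slc7a11, Slc1a4, Herpud1, Trib3, Chac1 and Vldlr. The same letters occurred in 4.51% of 27025 genes with such a window. The ER stress element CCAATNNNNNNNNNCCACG was present in 1 of the 32, Hspa5, against 0.137% of all genes. The cAMP response element TGACGTCA, which does not contain the composite motif, was in 1, Ppp1r15a, against 2.03%. A match is a run of letters and was not tested for binding.

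The stretches below run 5′ to 3′ on the strand of the gene, with the motif in capitals. Asns lies at chr6:7693210-7693277 on the minus strand, Atf3 at chr1:191183391-191183488 on the minus strand, Chac1 at chr2:119351004-119351101 on the plus strand and Slc7a11, which holds the composite motif in both orientations, at chr3:50443614-50443724 on the minus strand. Herpud1 lies at chr8:94386272-94386369, Vldlr at chr19:27216775-27216872 and Hspa5, with the ER stress element, at chr2:34771980-34772088, all on the plus strand.
Asns: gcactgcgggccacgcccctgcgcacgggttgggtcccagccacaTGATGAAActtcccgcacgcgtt
Atf3: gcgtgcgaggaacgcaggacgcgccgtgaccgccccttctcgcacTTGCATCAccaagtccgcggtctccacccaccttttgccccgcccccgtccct
Chac1: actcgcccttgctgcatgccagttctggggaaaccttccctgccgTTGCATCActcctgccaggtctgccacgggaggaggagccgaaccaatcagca
Slc7a11: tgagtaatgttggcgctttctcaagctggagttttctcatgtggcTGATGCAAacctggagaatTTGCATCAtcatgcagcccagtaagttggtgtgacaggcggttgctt
Herpud1: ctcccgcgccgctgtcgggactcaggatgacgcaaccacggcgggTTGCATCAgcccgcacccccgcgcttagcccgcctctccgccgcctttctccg
Vldlr: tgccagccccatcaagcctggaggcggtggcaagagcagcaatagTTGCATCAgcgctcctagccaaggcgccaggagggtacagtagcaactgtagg
Hspa5: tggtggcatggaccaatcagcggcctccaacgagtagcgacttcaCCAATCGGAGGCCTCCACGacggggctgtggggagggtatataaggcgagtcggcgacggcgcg

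In Control the genes covered a wide range of levels. Per kilobase of listed gene length, Hspa5, the chief ER chaperone, was highest at 233 ± 17.1 CPM per kilobase (RPKM; SD, n = 3). Next came the glutamine carrier Slc38a2 at 97.05 ± 8.46, the serine synthesis enzyme Psat1 at 92.7 ± 30.0 and Atf4 itself at 88.7 ± 14.0 RPKM, which did not differ from each other beyond their spread. The lowest levels were those of the secreted glycoprotein gene Stc2, at 1.37 ± 0.54 RPKM, and of the factor Cebpb, at 1.97 ± 1.07 RPKM. The late targets of the pathway were also scarce, with Chac1, a glutathione-degrading enzyme, at 4.24 ± 1.65 and Trib3, a pseudokinase that restrains ATF4, at 5.44 ± 2.93 RPKM.

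Most of the genes were far higher in 2 of the 12 libraries than in the other 10. In 34 of the 37, or 91.9%, the 2 highest levels were those of GW3965+CT99021 replicate 3 and GW3965 replicate 3, which was so for 7.79% of all genes tested. Because the genes were chosen with earlier results known, that contrast is descriptive. The exceptions were Psat1, Phgdh and Slc7a11. In a few genes the other libraries numbered 3 were also above their groups: Slc6a9 had 31.9 CPM in CT99021 replicate 3, against 11.1 and 17.0 in CT99021 replicates 1 and 2. In Control replicate 3 Ppp1r15a had 154 CPM, against 81.5 and 73.5 in Control replicates 1 and 2, and Slc6a9 had 41.4, against 17.0 and 18.6.

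**Figure D1:**
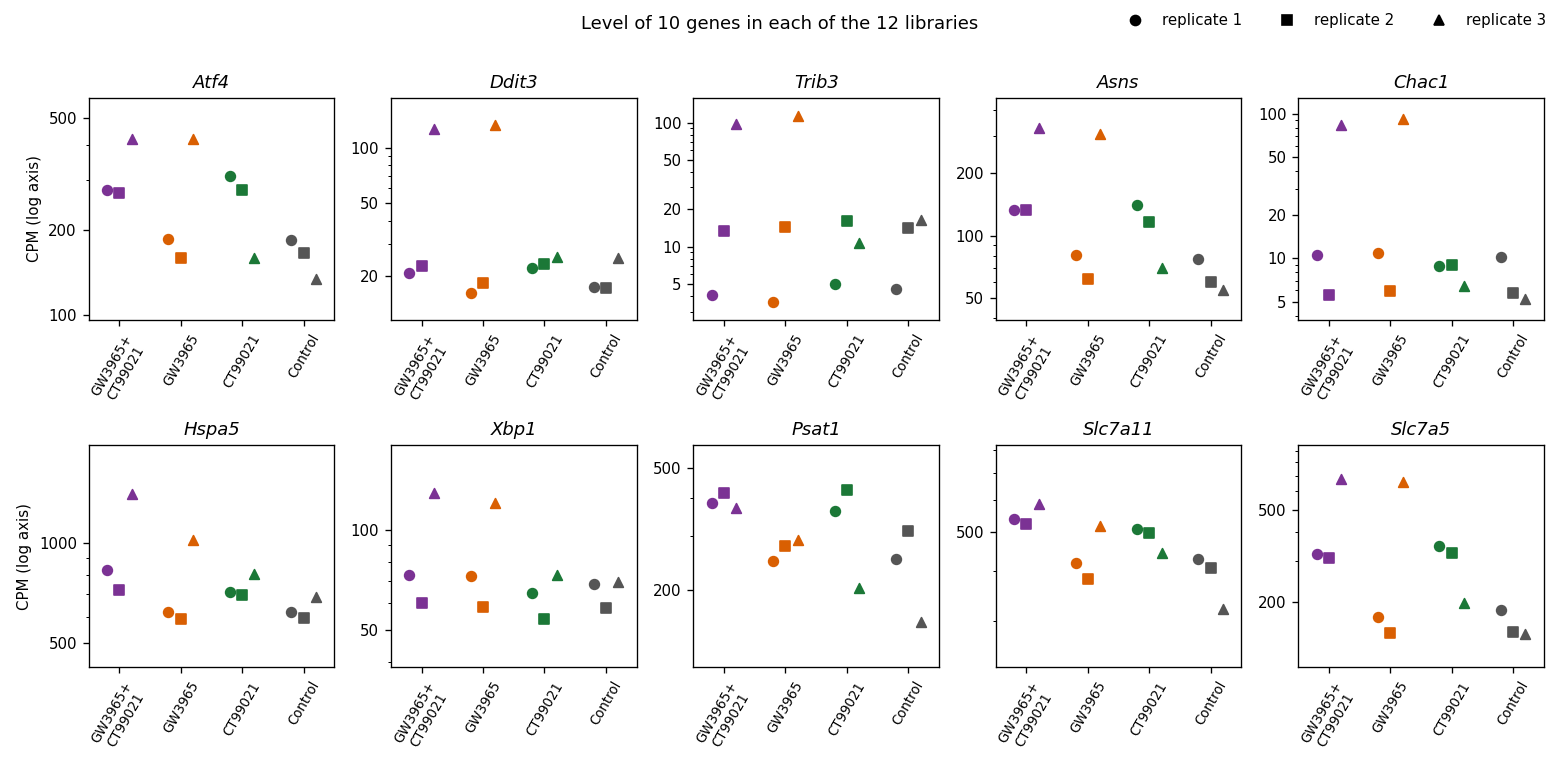
Level of 10 of the genes in each library, in CPM on a log axis, by group, with circles for replicate 1, squares for replicate 2 and triangles for replicate 3. For Atf4, Ddit3, Trib3, Asns, Chac1, Hspa5, Xbp1 and Slc7a5 the triangles of GW3965+CT99021 and GW3965 stand above every other point, while Psat1 and Slc7a11 keep to a narrower range.

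Among the transcription factors, Atf4 (listed on chromosome 15 at mm9 position 80085513) had 278.5, 270.9 and 420.3 CPM in replicates 1, 2 and 3 of GW3965+CT99021, 186, 159 and 420.1 in GW3965, 310.3, 278.5 and 159 in CT99021, and 185, 166 and 134 in Control. Ddit3, which encodes CHOP (chromosome 10, position 126727748), had 20.7, 22.6 and 127 CPM in GW3965+CT99021, 16.1, 18.3 and 133 in GW3965, 22.2, 23.4 and 25.4 in CT99021, and 17.4, 17.2 and 25.0 in Control. Within Ddit3, 10 libraries lay between 16.1 and 25.4 CPM and the other 2 lay above the Control of the same number by ratios of 5.08 for GW3965+CT99021 and 5.34 for GW3965. Xbp1 (chromosome 11, position 5420869) had 73.3, 60.2 and 129 CPM in GW3965+CT99021, 72.6, 58.4 and 121 in GW3965, 64.4, 53.8 and 73.0 in CT99021, and 68.9, 57.9 and 69.5 in Control. These are counts for the whole gene and do not part spliced from unspliced Xbp1.

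Among the enzymes, Asns, asparagine synthetase (chromosome 6, position 7625170), had 132, 133 and 328 CPM in GW3965+CT99021, 80.7, 62.1 and 308 in GW3965, 141, 117 and 69.9 in CT99021, and 77.3, 59.5 and 54.9 in Control. The GW3965+CT99021 libraries lay above all 3 Control libraries, while GW3965 and Control overlapped. Pck2, the mitochondrial phosphoenolpyruvate carboxykinase, had 22.4, 20.8 and 129.7 CPM in GW3965+CT99021, 29.1, 33.1 and 160.2 in GW3965, 25.8, 26.3 and 34.6 in CT99021, and 31.1, 35.5 and 45.9 in Control. In Pck2 the replicates 3 stood high and the other libraries with CT99021 stood below their Control.

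Chac1 and Trib3, late targets of the pathway, likewise stood far higher in that pair of libraries. Chac1 (chromosome 2, position 119176877) had 10.6, 5.61 and 82.9 CPM in GW3965+CT99021, 10.9, 5.92 and 91.8 in GW3965, 8.82, 8.93 and 6.41 in CT99021, and 10.2, 5.74 and 5.24 in Control. Trib3 (chromosome 2, position 152163160) had 4.09, 13.3 and 97.3 CPM in GW3965+CT99021, 3.59, 14.3 and 113 in GW3965, 5.05, 16.2 and 10.6 in CT99021, and 4.54, 14.1 and 16.4 in Control. Trib3 thus followed the replicate number as well: it lay at 3.59 to 5.05 CPM in the 4 replicates 1 and at 13.3 to 16.2 CPM in the 4 replicates 2, whatever the treatment. Stc2 reached 45.6 and 34.8 CPM in the replicates 3 of GW3965+CT99021 and GW3965, and 1.55 to 5.79 CPM in the other 10 libraries.

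Set against the Control of the same number, the 37 genes had a median log2 ratio of -0.07 in replicate 1, -0.03 in replicate 2 and 1.91 in replicate 3 of GW3965. GW3965+CT99021 set against CT99021 gave -0.03, -0.04 and 1.78. Over all genes tested the GW3965 medians lay at -0.01 in each number. In replicate 3, 27 of the 37 genes were at least 2-fold (1 log2 unit) higher in GW3965 than in Control, as were 2.16% of all genes, and 29 were so in GW3965+CT99021 against CT99021, as were 1.49%. By role, with no test between roles, in GW3965 against Control, replicate 3, the median log2 ratio was 1.86 for the 7 transcription factors, 2.12 for the 10 enzymes, 2.04 for the 8 transporters, 1.75 for the 6 feedback and growth-control genes and 0.62 for the 4 ER chaperones and degradation factors. The 2 secreted and surface genes, Stc2 and Vldlr, had a median of 2.98. Chac1 and Stc2 were highest, at 17.5 and 19.1 times Control, while the chaperone genes Hspa5 and Sdf2l1 stood at 1.49 and 1.34 times.

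**Figure D2:**
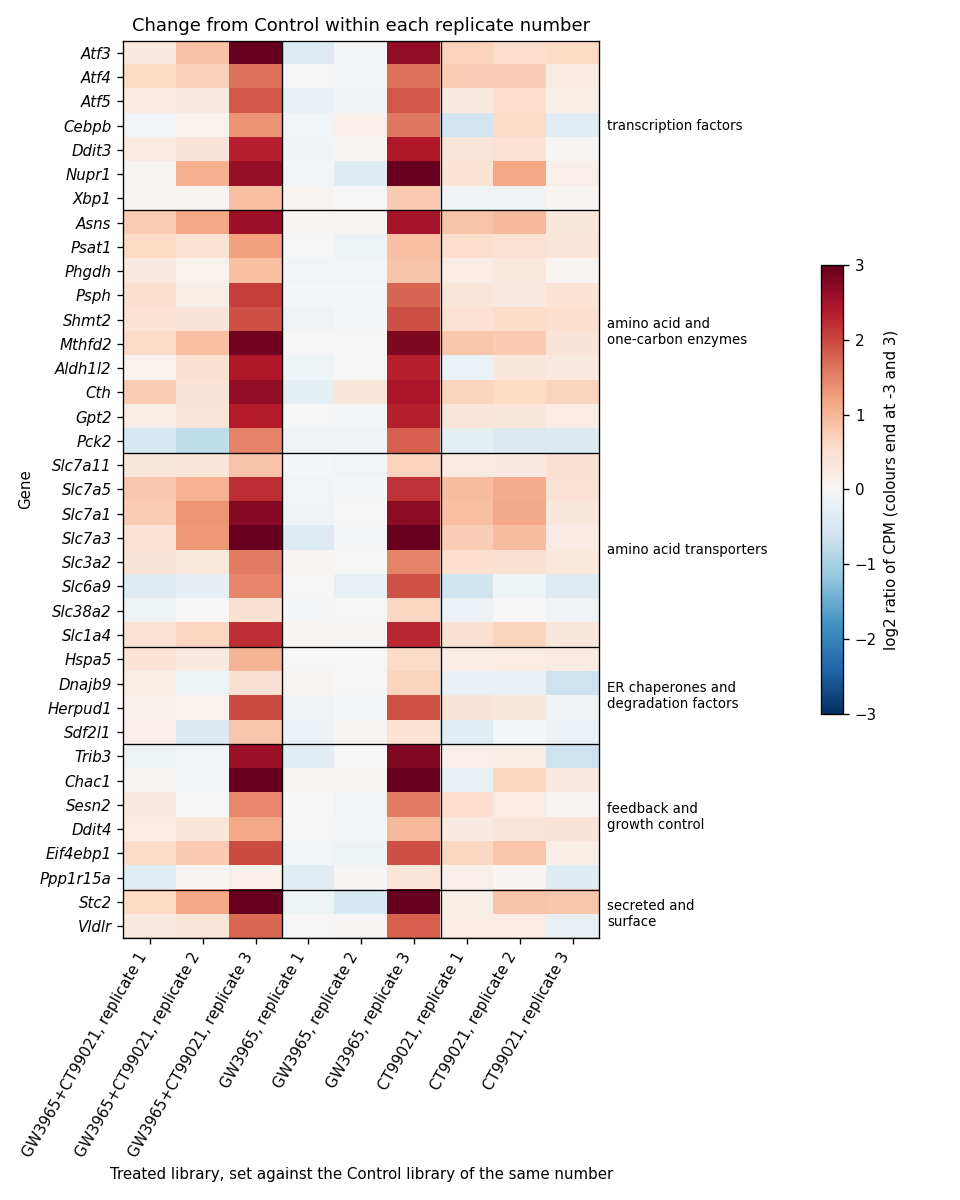
Log2 ratio of CPM of each treated library to the Control library of the same number (columns), for the 37 genes grouped by role (rows), red for higher and blue for lower, with colours ending at -3 and 3. The columns for replicate 3 of GW3965+CT99021 and of GW3965 are above 0 in all 37 rows, replicates 1 and 2 of GW3965 are near white, and the CT99021 columns are pale red in most rows of the first 3 groups.

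Other markers moved in the same pair of libraries, and their part in the pattern was not tested. The 8 immediate early genes listed, such as Fos and Jun, summed to 421, 331 and 569 CPM in GW3965+CT99021, 391, 300.0 and 638 in GW3965, 426, 342 and 297 in CT99021, and 415, 299 and 307 in Control. Their median log2 ratio in replicate 3 was 1.01 for GW3965 against Control and 0.97 for GW3965+CT99021 against CT99021. The 8 mitosis genes had medians of -0.41 and -0.28 in those pairs, and the 8 neural progenitor genes -0.10 and -0.42. These were also the libraries with the fewest counts, 11499130 in GW3965+CT99021 replicate 3 and 9646424 in GW3965 replicate 3, next to 11964227 in CT99021 replicate 1.

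GW3965 against Control asks whether LXR activation alone changed these genes. None of the 37 passed an edgeR adjusted p under 0.05 in the fits to all 12 libraries, where 0% of all genes passed without a block for the replicate number and 0.0192% passed with it. GW3965+CT99021 against CT99021, the test of GW3965 when the kinase was inhibited, gave the same counts and shares. At an unadjusted p under 0.05 there were 0 of the 37 in both comparisons without the block. With the block there were 0 in GW3965 against Control, where 2.47% of all genes lay, and 3 in GW3965+CT99021 against CT99021, where 6.52% lay. DESeq2 and limma-voom also called 0 in each. The median log2 fold change with the block was 0.62 in GW3965 against Control and 0.52 in GW3965+CT99021 against CT99021, but it rested on replicate 3: with all libraries numbered 3 left out it was -0.05 and -0.04. Again 0 genes passed in edgeR, where 0.0194% and 0.0581% of all genes did. At an unadjusted p under 0.05 there were 1 and 5, and the shares of all genes at that threshold are not given here. Slc3a2, the heavy chain that partners Slc7a5 and Slc7a11 at the membrane, was the 1 gene of the 37 whose GW3965 libraries all lay above Control, at 148, 148 and 389 CPM against 143, 147 and 139, where 1.26% of all genes did so.

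CT99021 against Control asks what inhibition of the kinase did. Within pairs of the same number, 6 of the 8 transporters and 8 of the 10 enzymes had higher levels with CT99021 in all 3 pairs, while Slc6a9, Slc38a2 and Pck2 had lower levels in all 3. The log2 ratio of Atf4 was 0.75, 0.74 and 0.24 in replicates 1, 2 and 3, and that of Slc7a5 0.92, 1.12 and 0.44. Over all 12 libraries none of the 37 passed in edgeR, where 0.0577% of all genes passed without and 15.8% with the block. At an unadjusted p under 0.05 the counts were 0 without the block and 2 with it, or 5.41% against 30.8% of all genes, and DESeq2 and limma-voom called 0 in either form. Slc7a11 came nearest with the block, at a log2 fold change of 0.32 ± 0.13 (SE) and an edgeR adjusted p of 0.121. With the block, 3 of the 37 passed in edgeR without CT99021 replicate 3 and 1 without GW3965 replicate 3. The shares of all genes in those fits are not given here. The genes did lean upward, with 24 of 37 higher and 5 lower in all 3 pairs, against 28.5% and 25.6% of all genes. The libraries of CT99021 all lay above those of Control for 5 genes, Slc7a11, Slc7a5, Slc3a2, Hspa5 and Ddit4, or 13.5%, against 7.22% of all genes.

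With the 4 libraries numbered 3 left out, which leaves 2 libraries a group, 21 of the 37 genes rose with CT99021 and 1 fell (edgeR with the block, adjusted p under 0.05). In that fit 25% of all genes passed, and 12.6% of all genes rose. CT99021 replicate 1, kept in it, had the lowest TMM factor, 0.9107, and 0.643% of its counts on rows of repeat sequences. Other libraries had 0.196 to 0.328% there. The part of that library in these calls was not tested. The median log2 fold change was 0.34 for the 37 genes and 0.00 for all genes. A further fit with the block left out only the 2 libraries that stood apart, GW3965 replicate 3 and GW3965+CT99021 replicate 3. In it 19 rose and 2, Pck2 and Dnajb9, fell, where 23.1% of all genes passed. Ddit3, Slc7a3, Herpud1, Sesn2 and Vldlr did not pass in it, while Atf3, Psph and Cth rose. That fit was chosen after the data had been seen. Without the block and without the libraries numbered 3, 6 of the 37 passed, against 1.43% of all genes.

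Of the 8 transporters, 6 rose in the fit without libraries numbered 3. Slc7a5, the carrier of large neutral amino acids, had 348 and 324 CPM in CT99021 replicates 1 and 2, against 184 and 149 in Control, a log2 fold change of 1.0 ± 0.07 (SE; edgeR adjusted p = 0.000638). Slc7a1, the carrier of arginine and lysine, had 198 and 214 CPM against 106 and 97.1, a log2 fold change of 1.0 ± 0.12. In both genes the CT99021 libraries of these numbers lay above the Control libraries. With 2 libraries a group, the share of all genes so placed was not counted. Slc7a3, a further cationic amino acid carrier (0.82), Slc1a4, a carrier of small neutral amino acids (0.55), Slc3a2 (0.47) and the cystine carrier Slc7a11 (0.26) rose as well. Slc38a2 at -0.11 and the glycine carrier Slc6a9 at -0.35 did not pass.

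Of the 10 enzymes, 6 rose and 1 fell. Asns had a log2 fold change of 0.90 ± 0.10 (edgeR adjusted p = 0.00205) and Mthfd2, of the mitochondrial folate cycle, 0.79 ± 0.10. Shmt2, which feeds serine into that cycle, rose by 0.47, and the serine synthesis genes Psat1 and Phgdh by 0.47 and 0.25. Gpt2, a mitochondrial alanine transaminase, rose by 0.33. Pck2 was the exception: it had 25.8 and 26.3 CPM in CT99021 replicates 1 and 2, against 31.1 and 35.5 in Control, and fell by 0.37 ± 0.10 (edgeR adjusted p = 0.0354). Aldh1l2, of the mitochondrial folate cycle, at 0.05, Psph, of the last step of serine synthesis, at 0.30 and the cysteine-forming enzyme Cth at 0.62 did not pass.

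Of the 7 transcription factors, Atf4 rose by a log2 fold change of 0.73 ± 0.06 (edgeR adjusted p = 0.00109), Atf5 by 0.39 and Ddit3 by 0.38. Xbp1, at -0.12 ± 0.06, did not pass, nor did Atf3, a factor raised by many stresses, at 0.61, Cebpb, a partner of ATF4, at -0.05, and the stress-inducible chromatin factor Nupr1 at 0.76. The ER chaperone group did not move as one. Hspa5 and Herpud1, which serves ER-associated degradation, rose by 0.20 and 0.34. The ER co-chaperone genes Dnajb9 at -0.23 and Sdf2l1 at -0.21 did not pass, and the median of the 4 was -0.01. Both co-chaperone genes were lower with CT99021 in all 3 pairs, with log2 ratios in replicate 3 of -0.62 for Dnajb9 and -0.17 for Sdf2l1. Among feedback and growth-control genes Eif4ebp1, which encodes a brake on cap-dependent translation, rose by 0.71 ± 0.10, Sesn2 by 0.34 and Ddit4 by 0.30, the last pair being inhibitors of mTORC1. Trib3, Chac1 and Ppp1r15a, the gene for the phosphatase subunit that reverses eIF2 alpha phosphorylation, had log2 fold changes of 0.16, 0.22 and 0.09 and did not pass. Vldlr, a lipoprotein receptor, rose by 0.21, and Stc2 at 0.52 did not pass. These rises rest on replicates 1 and 2. In the pair numbered 3, left out of that fit, the log2 ratios of Ddit3, Sesn2, Herpud1 and Vldlr were 0.03, 0.07, -0.10 and -0.21. In that pair 27 of the 37 genes were above 0.

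GW3965+CT99021 against GW3965 tests the same inhibitor on a background of LXR activation and shares no library with CT99021 against Control. Over all 12 libraries none of the 37 genes passed in edgeR, where 0.0769% of all genes passed without and 20.6% with the block. At an unadjusted p under 0.05 there were 0 without the block and 3 with it, where 35% of all genes lay. DESeq2 with the block called 2, Psat1 and Hspa5, where it called 21.9% of all genes, and DESeq2 without it and limma-voom in both forms called 0. Without GW3965 replicate 3, 5 passed in edgeR with the block, a fit for which the share of all genes is not given here. With the libraries numbered 3 left out 21 rose and 1 fell, where 28% of all genes passed and 15.7% rose. Of the 22 genes past the test in each of these comparisons, 19 were past it in both in the same direction, or 86.4% of each. Over all genes the shared calls were 73% of those of CT99021 against Control and 65.1% of those of GW3965+CT99021 against GW3965. Ddit3, Sesn2 and Herpud1 passed in CT99021 against Control only, and Atf3, Stc2 and Psph in GW3965+CT99021 against GW3965 only, which does not show that the effects differed.

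In the same fit Slc7a1 had 180.3 and 242 CPM in GW3965+CT99021 replicates 1 and 2, against 98.4 and 95.9 in GW3965, a log2 fold change of 1.09 ± 0.12. For Slc7a5 the log2 fold change was 0.96 ± 0.07, for Asns 0.88 ± 0.10, for Atf4 0.65 ± 0.06 and for Pck2 -0.54 ± 0.10. Stc2, not past the test in CT99021 against Control, had the largest of the 37, 1.15 ± 0.29, at 5.79 and 5.15 CPM against 3.36 and 1.55. In replicate 3, where both libraries stood high, the median log2 ratio of GW3965+CT99021 to GW3965 over the 37 genes was 0.04, against 0.35 and 0.33 in replicates 1 and 2.

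**Figure D3:**
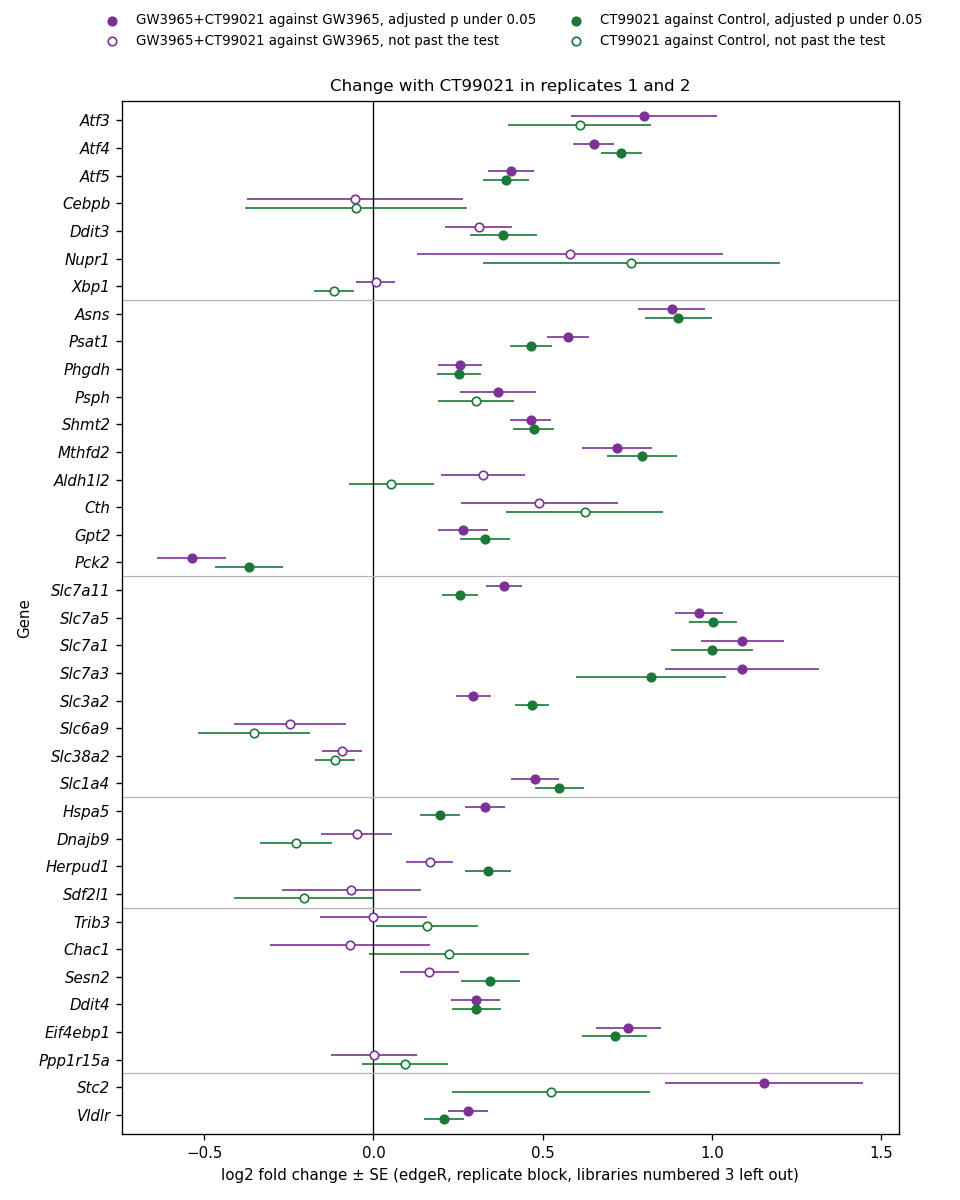
Log2 fold change with CT99021 in replicates 1 and 2 for the 37 genes, purple for GW3965+CT99021 against GW3965 and green for CT99021 against Control, with bars for ± 1 SE (edgeR, replicate block) and filled points for adjusted p under 0.05. Slc7a5, Slc7a1 and Asns lie between 0.88 and 1.09 in both, Pck2 lies below 0 in both, and Xbp1, Trib3, Chac1 and Ppp1r15a lie near 0.

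Cell type markers also differed with CT99021, and their part in these changes was not tested. The 8 neural progenitor genes had median log2 ratios of -0.44, -0.34 and -0.39 in replicates 1, 2 and 3 of CT99021 against Control, and -0.25, -0.56 and -0.55 in GW3965+CT99021 against GW3965, with 6 of the 8 lower in all 3 pairs of each. The 6 mesenchyme and pericyte genes had medians of 0.19, 0.53 and 0.46 in CT99021 against Control, and 0.96, 1.73 and 0.43 in GW3965+CT99021 against GW3965. The 8 mitosis genes had -0.40, -0.22 and -0.07 in CT99021 against Control, and -0.20, -0.20 and 0.11 in GW3965+CT99021 against GW3965. In bulk RNA fewer cells of a type and less RNA in each cannot be told apart.

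GW3965+CT99021 against Control joins both agents. Over all 12 libraries edgeR without the block called 0 of the 37 genes, where 0.115% of all genes passed. At an unadjusted p under 0.05 there were 17, against 12% of all genes. DESeq2 without the block called 1, where it called 3.67% of all genes, and limma-voom 0. With the block edgeR called 3, all upward, where 20.3% of all genes passed and 11.3% rose. Hspa5 (chromosome 2, position 34627509) had 829, 721 and 1397 CPM in GW3965+CT99021, 621, 593 and 1020 in GW3965, 710.4, 695 and 808 in CT99021, and 620, 596 and 686 in Control. It rose by a log2 fold change of 0.58 ± 0.14 against Control (edgeR adjusted p = 0.0187), and every library with CT99021 lay above the Control libraries. Slc7a11 (chromosome 3, position 50168857) had 538, 521 and 586 CPM in GW3965+CT99021, 418, 381 and 516 in GW3965, 507, 497 and 442 in CT99021, and 428, 405 and 322 in Control. It rose by 0.51 ± 0.13 (edgeR adjusted p = 0.0225). Psat1 (chromosome 19, position 15979612) had 384, 413 and 371 CPM in GW3965+CT99021, 249, 279 and 291 in GW3965, 361, 423 and 203 in CT99021, and 252, 311 and 157 in Control, and rose by 0.74 ± 0.20 (edgeR adjusted p = 0.0285). DESeq2 with the block called these 3 and Ddit4 (adjusted p = 0.0249), where it called 22.4% of all genes.

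Psat1 and Slc7a11 were among the 3 genes in which the outlying pair of libraries were not the 2 highest. Their GW3965+CT99021 libraries lay above both the GW3965 and the Control libraries, with no overlap. They were the only 2 of the 37 to lie so above GW3965, or 5.41%, which is below the 8.18% of all genes. The call of all 3 genes was lost without Control replicate 3 and without GW3965+CT99021 replicate 3, with the edgeR adjusted p of Hspa5 at 0.0807 and 0.0681. Of the 3, 2 were left without GW3965+CT99021 replicate 1 and 1 each without Control replicate 1, Control replicate 2 and GW3965+CT99021 replicate 2. Of the 37 genes, 16 passed without GW3965 replicate 3 and 9 without CT99021 replicate 3. The shares of all genes in those fits are not given here, so these counts cannot be set against them. For 21 of the 37 genes, or 56.8%, all GW3965+CT99021 libraries lay above all Control libraries, where 9.13% of all genes did so. With the libraries numbered 3 left out 17 rose and Pck2 fell, by 0.63 ± 0.10, where 25.1% of all genes passed and 13.7% rose. Of the 17, Slc7a1 rose by 1.03 ± 0.12, Asns by 0.95 ± 0.10 and Atf4 by 0.63 ± 0.06. The interaction between GW3965 and CT99021 (log2 scale) called 0 of the 37 genes in edgeR, where 0% of all genes passed, with 0 at an unadjusted p under 0.05, without and with the block, and 0 in DESeq2 and limma-voom. Its median with the block was -0.06, and its standard errors were wide, at 0.50 for Atf4. Differences of that size, and also larger ones, may lie below what these libraries can show.

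Of the 37 genes, 17 differed by replicate number when both number terms were tested together (edgeR, adjusted p under 0.05), or 45.9%, against 66.3% of all genes. Among these 17 were Ddit3, Trib3, Chac1, Nupr1, Xbp1 and Hspa5. Atf4 was not, at an edgeR adjusted p of 0.664. The test does not say in which groups a number stood apart. Chac1 had 91.8 CPM in GW3965 replicate 3 and 82.9 in GW3965+CT99021 replicate 3. It had only 5.24 in Control replicate 3 and 6.41 in CT99021 replicate 3. Hspa5 thus passed both by number and in GW3965+CT99021 against Control.

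Other genes of the pathway, 44 listed and 42 tested, were examined in the same fits. They were chosen, like the 37, with earlier results of these data known. In edgeR without the block none passed in any comparison over all 12 libraries, while DESeq2 without it called 3 in GW3965+CT99021 against Control and 1 in GW3965+CT99021 against GW3965. At an unadjusted p under 0.05 edgeR without the block had 1 of the 42 in GW3965 against Control, 4 in CT99021 against Control and 14 in GW3965+CT99021 against Control, or 2.38%, 9.52% and 33.3%, where 0.147%, 9.7% and 12% of all genes lay. With the block CT99021 against Control had 4 higher and 2 lower, or 14.3% of the 42, below the 15.8% of all genes. GW3965+CT99021 against Control had 17 higher and 2 lower, or 45.2%, where 20.3% of all genes passed. GW3965 against Control had 0 (4 at an unadjusted p under 0.05, or 9.52%, against 2.47% of all genes). Among the genes past the test in the combination the largest rises were those of Vegfa, an angiogenic growth factor (1.01 ± 0.32), Mthfd1l, of the folate cycle (0.96 ± 0.25), Gadd45a, a growth arrest gene (0.90 ± 0.25), and Manf, a factor of the ER lumen (0.64 ± 0.14). Vegfa had 56.8, 71.7 and 218 CPM in GW3965+CT99021, against 39.8, 41.8 and 64.6 in Control, so that replicate 3 stood apart, and without the libraries numbered 3 its log2 fold change was 0.63 ± 0.11. Gdf15, a stress-induced cytokine, had 0.690, 1.06 and 17.9 CPM against 0.510, 0.594 and 0.793, a log2 fold change of 2.36 ± 0.92 that did not pass (edgeR adjusted p = 0.0963). The chaperone and folding genes Hsp90b1, Calr, Canx, Pdia3, Pdia4, Pdia6 and Dnajb11 rose by 0.25 to 0.42. The pro-apoptotic gene Bbc3 fell by 0.81 ± 0.24 and Mbtps1, the protease that activates ATF6, by 0.33 ± 0.08.

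With CT99021 alone Shmt1, the cytosolic partner of Shmt2, rose by 0.69 ± 0.07, the death receptor gene Tnfrsf10b by 0.42 ± 0.12, the calnexin gene Canx by 0.26 ± 0.07 and Eif2s1, which encodes eIF2 alpha, by 0.24 ± 0.06. Bbc3 fell by 0.87 ± 0.25 and Mbtps1 by 0.31 ± 0.08. Bbc3 had 11.9, 11.7 and 13.2 CPM in CT99021, against 22.9, 18.6 and 26.5 in Control, with no overlap. In GW3965+CT99021 against GW3965, 9 rose and 2 fell, or 26.2%, where 20.6% of all genes passed, with a log2 fold change of 0.57 ± 0.07 for Shmt1 and -1.0 ± 0.24 for Bbc3. With the libraries numbered 3 left out, 12 of the 42 rose and 5 fell in CT99021 against Control, or 40.5%, where 25% of all genes passed. Atf6, the ER stress sensor, was among those that fell, at 26.6 and 28.5 CPM against 41.6 and 39.2 in Control, a log2 fold change of -0.56 ± 0.09, while at 3 libraries a group it was not past the test.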

How the data were processed

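A deposited table held the authors' raw, unnormalized counts of reads per gene. The submitters' processing notes name Bowtie and mm9. For the counting program, annotation and use of strand, nothing is stated here. It held 23965 gene rows and 1217 repeat rows, which stayed out of library sizes. CPM were computed from the deposited counts with TMM factors. The edgeR 4.0.16 quasi-likelihood F test (R 4.3.3) was fitted to all 12 libraries with 1 mean per group, after filterByExpr, with Benjamini-Hochberg adjustment over 15608 genes and a threshold of 0.05. DESeq2 1.42.0 and limma-voom (limma 3.58.1) were alternatives. The fits were also run on simulated data that held no libraries standing apart. For the fit without the block, the simulated spread was smaller than that of these libraries. That run therefore does not show how the fits act on libraries like these. Errors of fold changes are standard errors.

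All 18 same-numbered pairs of libraries correlated in their deviations from group means (r = 0.496 to 0.828), so the numbers were taken, from the data and not the labels, to pair the libraries, and fold changes come from the fit with the number as a block. The common coefficient of variation was 33.4% without and 12.7% with it. Pair ratios used log2 CPM with a prior count of 2. No libraries of a group were alike within sampling noise. Members and lists were chosen with earlier results of these data known. Full values are given for members past the test over all libraries and for Atf4, Ddit3, Trib3, Asns, Chac1, Hspa5 and Xbp1; other genes with values per library were chosen after their values were seen. From the other pathway genes, up to 4 of the largest changes each way were named, plus Atf6 and the folding genes, chosen afterwards.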

Additional observations from a re-analysis of the deposited data

How the results depend on the processing

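Over all libraries, edgeR without the block called 0 of the 37 genes in each comparison, also with any 1 library left out. That count became 3 for GW3965+CT99021 against Control with the replicate block (4 with DESeq2 and the block) and 1 with DESeq2 without it. Without the libraries numbered 3 it became 6 for CT99021 against Control, where 1.43% of all genes passed. It became 4 for GW3965+CT99021 against Control and 3 for GW3965+CT99021 against GW3965, with shares of all genes not given here. A fit to the 7 libraries outside numbers 3 and GW3965+CT99021 replicate 2 left that group with 1 library, so its counts are left out. With the block, CT99021 against Control had 22 calls without the libraries numbered 3 and 21 without GW3965 and GW3965+CT99021 replicates 3, against 25% and 23.1% of all genes. In the same order GW3965+CT99021 against Control had 18, 17 and 15, and GW3965+CT99021 against GW3965 had 22, 18 and 20, or 2 with DESeq2.

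With 1 library left out and the block, the counts ran from 0 to 3 for CT99021 against Control (3 without CT99021 replicate 3), from 0 to 16 for GW3965+CT99021 against Control (16 without GW3965 replicate 3, 9 without CT99021 replicate 3, 1 without Control replicate 1 or 2 or GW3965+CT99021 replicate 2, 0 without Control replicate 3 or GW3965+CT99021 replicate 3), from 0 to 5 for GW3965+CT99021 against GW3965 (5 without GW3965 replicate 3) and from 11 to 28 for the replicate number (28 without CT99021 replicate 3). Shares of all genes are not given here for the fits with 1 library left out. GW3965 against Control, GW3965+CT99021 against CT99021 and the interaction stayed at 0 in every setting run. Scaling by library totals alone left the 3 calls of the combination past the test. Over all genes it gave 641 higher and 1383 lower in CT99021 against Control, where TMM gave 1285 and 1185. Direction was not kept in every setting. In GW3965 against Control with the block, the median log2 fold change of the 7 transcription factors was 0.62 over all libraries. Without the libraries numbered 3 it was -0.02. With 2 libraries a group few are left to estimate the spread, and counts of genes near 1 CPM, such as Nupr1, carry the largest errors.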
